A study of Mus musculus with 6 samples.

Results

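Kdm2b (formerly Fbxl10), its paralog Kdm2a and 8 genes for subunits of the non-canonical Polycomb complex PRC1.1 were examined in mouse embryonic fibroblasts (MEFs) that overexpress Fbxl10. The 10 genes were chosen by name, and all 10 were measured among the 19936 genes of the array that have a probe set assigned to 1 gene. A gene with several such probe sets was represented by its brightest one on average. The study compared RNA of 2 groups of 3 arrays each. The control group was the untransfected Tet-off MEF line, a stable line derived from MEFs. The HA-Fbxl10 group was the same line after transfection with a plasmid carrying HA-tagged Fbxl10 cDNA together with a hygromycin resistance plasmid, grown from cell clones picked for expression of the tagged protein. Both groups are Tet-off cells, in which a tetracycline-controlled transactivator can drive transgenes. The labels leave unsaid how many clones gave the 3 RNA samples, which promoter and species the cDNA has, and whether tetracycline was present. No array of cells with an empty or hygromycin-only plasmid was analysed here, so what transfection or the picking of clones did and what Fbxl10 did cannot be told apart. The 3 RNA samples of a group are called independent without mention of separate cultures or clones, so the spread behind each p-value may be technical.

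KDM2B is a histone demethylase with a JmjC domain that removes methyl groups from lysines of histone H3. It also holds a CXXC zinc finger that binds unmethylated CG dinucleotides, and through it the protein sits at CpG islands and brings PRC1.1 there. In this complex RING1 or RNF2 carries the RING finger that attaches ubiquitin to histone H2A, and PCGF1 is the partner RING protein that sets the complex apart from other PRC1 forms. BCOR or BCORL1 forms the link between PCGF1 and KDM2B, RYBP or YAF2 binds the RING proteins and stimulates their activity, and USP7 is an associated deubiquitinase. In fibroblasts KDM2B is known for delaying senescence.

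The sequences below are RefSeq promoter windows of build GRCm38.p6, printed because the CXXC finger reads CG dinucleotides and because Kdm2b and Usp7 were the genes of the group whose level rose. Each window runs from 250 bases before a transcript start to 50 after it, 5′ to 3′ on the gene's strand, with every CG in capitals (CG reads the same on both strands). The table of windows matched 6 of the 10 genes, namely Kdm2b, Bcor, Bcorl1, Ring1, Rnf2 and Usp7, with 10 windows. The upstream start of Kdm2b (chr5:122989050-122989349, minus strand) and its downstream start (chr5:122900301-122900600, minus strand) are the outermost of its 4 windows. The start listed for Usp7 is at chr16:8738293-8738592 on the minus strand.
Kdm2b upstream start: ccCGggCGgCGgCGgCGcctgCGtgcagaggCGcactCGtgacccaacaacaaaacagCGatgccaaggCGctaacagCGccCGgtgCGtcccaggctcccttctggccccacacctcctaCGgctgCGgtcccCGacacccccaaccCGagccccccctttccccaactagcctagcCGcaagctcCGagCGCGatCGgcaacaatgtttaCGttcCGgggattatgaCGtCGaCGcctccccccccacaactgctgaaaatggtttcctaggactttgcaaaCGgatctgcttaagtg
Kdm2b downstream start: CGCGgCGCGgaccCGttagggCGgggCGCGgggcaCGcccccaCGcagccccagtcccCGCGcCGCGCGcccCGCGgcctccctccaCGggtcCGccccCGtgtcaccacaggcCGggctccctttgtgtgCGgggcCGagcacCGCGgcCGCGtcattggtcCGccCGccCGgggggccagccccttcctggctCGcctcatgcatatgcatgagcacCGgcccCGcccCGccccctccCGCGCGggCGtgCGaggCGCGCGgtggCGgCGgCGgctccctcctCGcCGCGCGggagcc
Usp7 start: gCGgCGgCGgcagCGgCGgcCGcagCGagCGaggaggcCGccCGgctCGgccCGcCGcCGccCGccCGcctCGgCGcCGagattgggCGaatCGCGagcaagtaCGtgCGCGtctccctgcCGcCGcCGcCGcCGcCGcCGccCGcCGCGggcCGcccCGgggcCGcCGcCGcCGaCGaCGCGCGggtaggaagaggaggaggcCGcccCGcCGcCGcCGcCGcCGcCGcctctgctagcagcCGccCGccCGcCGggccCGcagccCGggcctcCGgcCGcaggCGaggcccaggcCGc
The upstream Kdm2b window held 28 CG dinucleotides and the downstream one 49, while the Usp7 window held 63. Over all 32851 windows of the table the median was 7 and 94.6% held at least 1. The other Kdm2b windows held 18 and 47. At least 18 CG were found in 29.7% of all windows, at least 28 in 14.2%, at least 47 in 1.44% and at least 49 in 1.02%, so the starts of Kdm2b differ widely in CG content. At least 63, as at Usp7, were found in 10 windows, that of Usp7 included. The other matched genes, none of which passed the test below, had 21 (Bcor and Bcorl1), 30 (Rnf2) and 37 (Ring1). All 10 windows thus held more CG than the median window, in Kdm2b and Usp7, which rose, and in genes that did not pass the test. Pcgf1, the gene that fell, had no window here. Kdm2b was transfected as cDNA, and what its own promoters added to its rise was not measured. These counts describe the DNA letters, and no binding or methylation was measured on these arrays.

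Levels below are log2 values as deposited, made with RMA, in which a step of 1 is a doubling. A difference is HA-Fbxl10 minus control on that scale, tested with limma over all 19936 genes. A gene passed at an adjusted p under 0.05. Array medians over all probe sets were 4.69 to 4.79, and Pearson correlations over genes were 0.997 to 0.998 within groups and 0.991 to 0.992 between them. Of 10 fibroblast markers, 8 lay above the median level of all genes (5.36), with control levels from 4.59 to 12.88. Of the 10, 3 passed and fell, with the largest falls in Col3a1 (-0.79) and S100a4 (-0.64). These falls are to be read against 10.6% of all genes and 17.8% of those above the median level. Of 7 macrophage, 6 epithelial, 5 endothelial and 5 skeletal muscle markers, 2, 2, 0 and 1 lay above that median. The markers that passed among these 23 genes were Cd14 (-0.45), Krt19 (0.71) and Kdr (0.51), to be read against 21.1% of all genes. Kdr was dim, with means of 3.69 in control and 4.2 in HA-Fbxl10 cells. Its control mean lay under the lower quartile of all gene levels (3.75). The call of Cd14 did not survive the omission of control replicate 1, control replicate 3, HA-Fbxl10 replicate 1 or HA-Fbxl10 replicate 3, with adjusted p-values from 0.085 to 0.119. That call also ended with quantile normalisation, with a block for the replicate number and with the median of neighbouring genes removed. The log2 levels summed over the fibroblast list were 96.3 to 96.9 on control and 94.1 to 95.2 on HA-Fbxl10 arrays. They were 28.6 to 28.8 and 28.2 to 28.6 for the macrophage list, 33.0 to 33.3 and 33.2 to 34.2 for the epithelial list, 19.6 to 20.3 and 20.2 to 20.4 for the endothelial list, and 22.5 to 24.1 and 22.8 to 23.3 for the muscle list. Their part in the results below was not tested. Probe sets differ in how strongly they hybridise, so levels of different genes are not compared.

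Kdm2b, the gene that was transfected, was 5.03-fold higher in HA-Fbxl10 cells. On the probe sets used, the other 9 genes moved by 1.25-fold or less. The dimmer probe set of Rybp, taken up below, differed by -0.40. Usp7 rose, Pcgf1 fell, and 7 genes did not pass the test. Passing genes thus numbered 3 of 10, against 21.1% of all genes. They include Kdm2b, whose rise was set by the transfection. Among the 9968 genes above the median level, where all 10 genes lay, 37% passed, so the count is near the background. The 2 rises are to be read against 10.5% of all genes and 19.2% of those above the median level, and the 1 fall against 10.6% and 17.8%. A called change of at least 1 on the log2 scale, which 1 of the 10 genes had, was found in 0.958% of all genes. The 9 genes besides Kdm2b had a median absolute difference of 0.17, and that of all genes above the median level was 0.18. The groups of 3 arrays did not overlap for 5 of the 10 genes, against 36% of all genes and 57.9% of those above the median level.

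**Figure D1:**
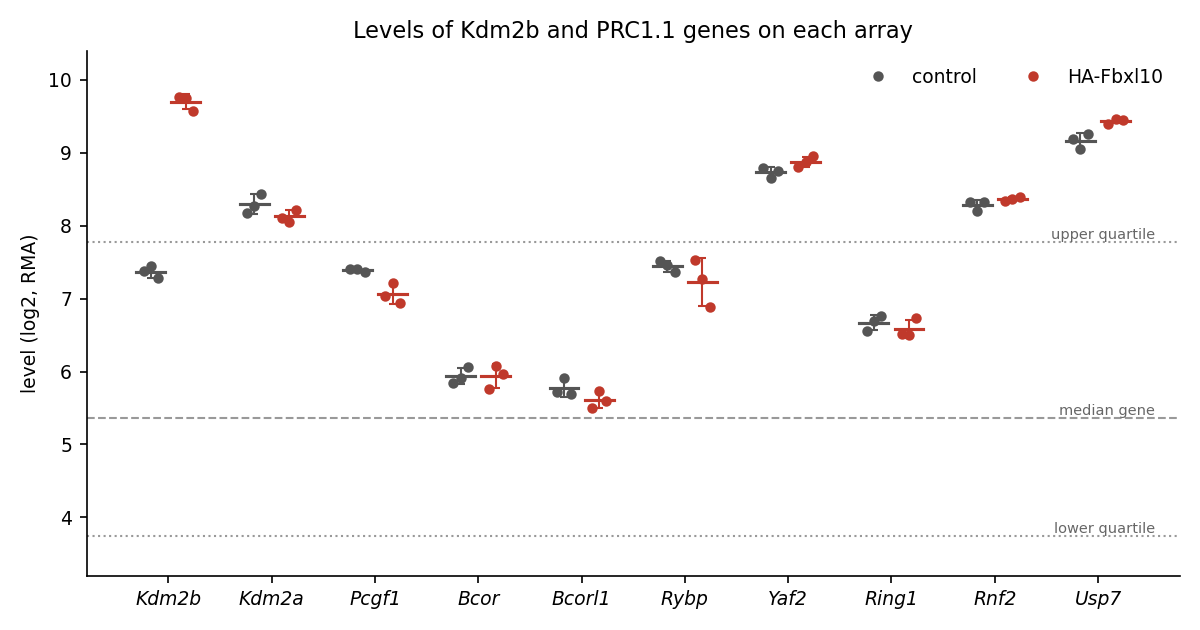
Log2 level (RMA) of each of the 10 genes on every array, with control arrays in grey and HA-Fbxl10 arrays in red. Points are arrays, horizontal bars are means and whiskers are 1 SD (n = 3), and the lines mark the quartiles of all gene levels. The Kdm2b groups lie far apart, from below the upper quartile (7.78) to above it. On the probe sets shown, the means of every other gene differ by 1.25-fold or less. The dimmer Rybp probe set is not shown.

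Kdm2b stood at 7.38, 7.45 and 7.28 on the control arrays and at 9.77, 9.75 and 9.58 on the HA-Fbxl10 arrays. Every HA-Fbxl10 array lay above every control array, by far more than the spread within either group. The means were 7.37 ± 0.08 and 9.70 ± 0.10 (SD, n = 3 each), and the difference was 2.33 ± 0.08 (SE, limma adjusted p = 3.31e-07, 95% interval 2.16 to 2.50). In percent of control this is 503%, with an interval from 446% to 566%. An exact two-sided permutation test of 3 arrays against 3 gave p = 0.10, the smallest value this design allows. Among the values of all genes the control mean stood above 70% and the HA-Fbxl10 mean above 93%, which describes the place of this probe set's signal and not the amount of RNA against other genes. The rise was the third among all 19936 genes. It passed under all 16 alternative settings tried, with differences of 2.16 to 2.39. The gene has 1 probe set, and its signal sums endogenous and transfected RNA, which cannot be told apart here. The median difference of its 31 neighbouring expressed genes was 0.12. Of the 660 expressed genes of chromosome 5, where Kdm2b lies, 38.5% were higher and 5.76% lower, with a median of 0.17. The nearest expressed genes were Rnf34 on one side and Orai1 on the other, with differences of 0.23 and 0.07 that did not pass the test.

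Kdm2a encodes the closest relative of KDM2B, a demethylase with the same order of domains that also binds CpG islands but is not a subunit of PRC1.1. Its levels were 8.17, 8.27 and 8.44 on the control arrays and 8.11, 8.05 and 8.22 on the HA-Fbxl10 arrays. The groups overlapped. The difference was -0.17 ± 0.08 (SE, limma adjusted p = 0.218), which is 89.1% of the control level with an interval from 78.2% to 102%. The 31 expressed neighbours of Kdm2a on chromosome 19 had a median difference of -0.20, and the nearest ones, Pold4 (-0.73) and Pcx (-0.75), both fell. These neighbours were named after their values were seen. With the neighbours' median removed the Kdm2a difference was 0.04, and it was -0.09 without control replicate 3. It did not pass under any of 16 alternative settings (adjusted p of 0.13 to 0.774).

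Pcgf1 was the subunit gene that fell. Its control levels of 7.41, 7.40 and 7.36 lay close together, and its HA-Fbxl10 levels were 7.03, 7.22 and 6.94. All 3 HA-Fbxl10 arrays were below all 3 control arrays. The means were 7.39 ± 0.03 and 7.06 ± 0.14 (SD, n = 3 each), and the difference of -0.32 ± 0.08 (SE, limma adjusted p = 0.0182, 95% interval -0.50 to -0.14) leaves 79.9% of the control level. Genes around Pcgf1 on chromosome 6 were lower as well. The 31 neighbouring expressed genes had a median difference of -0.37, and the nearest genes on either side, Aup1 (-0.51, adjusted p = 0.000502) and Mogs (-0.58, adjusted p = 0.000408), both fell. Of the 478 expressed genes of chromosome 6, 33.5% were lower and 12.3% higher, with a median of -0.13. With the neighbours' median removed the Pcgf1 difference was 0.04 (adjusted p = 0.735), and with the chromosome's median removed it was -0.20 (adjusted p = 0.112). The call also ended when control replicate 1, control replicate 2, HA-Fbxl10 replicate 1 or HA-Fbxl10 replicate 3 was left out (adjusted p of 0.0512 to 0.0704, differences of -0.26 to -0.40 over all 6 omissions), and when array medians were subtracted (-0.27, adjusted p = 0.0568).

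Bcor and Bcorl1 encode related corepressors, both from the X chromosome. Bcor stood at 5.84, 5.91 and 6.06 on the control arrays and at 5.76, 6.08 and 5.97 on the HA-Fbxl10 arrays, so the groups overlapped fully. Its difference of 0.00 ± 0.10 (SE, limma adjusted p = 0.993) ranked 19753 of 19936 by size, with an interval from 86.1% to 116% of control. The nearest expressed genes, Mid1ip1 (0.56) and Atp6ap2 (0.71), rose, while the median of 31 neighbours was -0.04. These neighbours too were named after their values were seen. Bcorl1 stood at 5.72, 5.91 and 5.69 on the control arrays and at 5.50, 5.73 and 5.60 on the HA-Fbxl10 arrays. These groups overlapped at their edges. The difference was -0.17 ± 0.09 (SE, limma adjusted p = 0.231), 89.1% of control with an interval from 78.0% to 102%. Both genes lay near the median level of all genes. The 292 expressed genes of the X chromosome had a median difference of -0.01. Xist, the X-linked RNA that silences one X chromosome in female cells, fell from 8.25 ± 0.25 to 3.24 ± 0.18 (SD, n = 3 each, limma adjusted p = 9.33e-08). Its part in the values of Bcor and Bcorl1 was not tested.

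Rybp and Yaf2 encode the adaptor subunits that bind RING1 or RNF2. Rybp has 2 probe sets with a single gene name, and they differ. The brighter one read 7.51, 7.46 and 7.36 on the control arrays and 7.53, 7.27 and 6.88 on the HA-Fbxl10 arrays. HA-Fbxl10 replicate 3 was low and replicate 1 was as high as the controls, which gave the largest spread of any of these genes (SD 0.33). The difference was -0.21 ± 0.14 (SE, limma adjusted p = 0.36), with an interval from 69.3% to 107% of control, and it was -0.04 without that low array. The dimmer probe set read 7.20, 6.95 and 7.09 on the control arrays and 6.75, 6.55 and 6.74 on the HA-Fbxl10 arrays, with no overlap. In a fit over all 35556 probe sets, added after seeing the data, its difference was -0.40 ± 0.09 (SE, limma adjusted p = 0.0400, 95% interval -0.62 to -0.18). Leaving out any 1 array ended this call (adjusted p of 0.0511 to 0.116). The average of both probe sets differed by -0.31 (adjusted p = 0.0393). RefSeq lists a transcribed Rybp pseudogene, Rybp-ps, on chromosome 13, and which probe set reads which copy was not tested. Rybp lies on chromosome 6 like Pcgf1, and its 31 expressed neighbours had a median difference of -0.23. Removing it left 0.01 for the brighter probe set and -0.18 for the dimmer one.

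Yaf2 levels were 8.79, 8.66 and 8.75 on the control arrays and 8.81, 8.87 and 8.95 on the HA-Fbxl10 arrays. The groups did not overlap, but by a narrow gap. The difference was 0.14 ± 0.07 (SE, limma adjusted p = 0.203), 110% of control with an interval from 99.0% to 123%. Neighbouring expressed genes on chromosome 15 had a median of -0.10, and with it removed Yaf2 differed by 0.24 and passed (adjusted p = 0.0364), the one setting of 16 in which it did. Over those 16 settings its adjusted p ran from 0.0364 to 0.453.

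Ring1 and Rnf2 encode the RING fingers that do the ubiquitination. Ring1 stood at 6.56, 6.69 and 6.76 on the control arrays and at 6.52, 6.50 and 6.73 on the HA-Fbxl10 arrays, which overlapped. Its difference was -0.09 ± 0.09 (SE, limma adjusted p = 0.556), with an interval from 82.3% to 107% of control. Rnf2 stood at 8.32, 8.20 and 8.33 on the control arrays and at 8.34, 8.37 and 8.39 on the HA-Fbxl10 arrays. The latter were all above the controls by a small margin. The difference was 0.09 ± 0.07 (SE, limma adjusted p = 0.441), with an interval from 95.8% to 117% of control. Neither gene passed under any of 16 alternative settings. The neighbours' medians were -0.02 for Ring1 and 0.07 for Rnf2.

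Usp7 was the subunit gene that rose. Its levels were 9.19, 9.05 and 9.26 on the control arrays and 9.40, 9.47 and 9.45 on the HA-Fbxl10 arrays. All HA-Fbxl10 arrays lay above all control arrays, and they were more alike (SD 0.04, n = 3) than the controls (SD 0.11, n = 3). The difference was 0.27 ± 0.07 (SE, limma adjusted p = 0.0265, 95% interval 0.11 to 0.43), 120% of control. Unlike at Pcgf1, the median of 31 expressed neighbours on chromosome 16 was near 0 (0.03). Of the nearest expressed genes Carhsp1 rose (0.34, adjusted p = 0.00923) and 1810013L24Rik did not pass (0.10). With the neighbours' median or the chromosome's median removed Usp7 still passed. The call ended with the replicate number as a block (0.27, adjusted p = 0.0611), and when any 1 array other than control replicate 3 was left out (adjusted p of 0.0556 to 0.0851, differences of 0.21 to 0.32 over all 6 omissions).

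**Figure D2:**
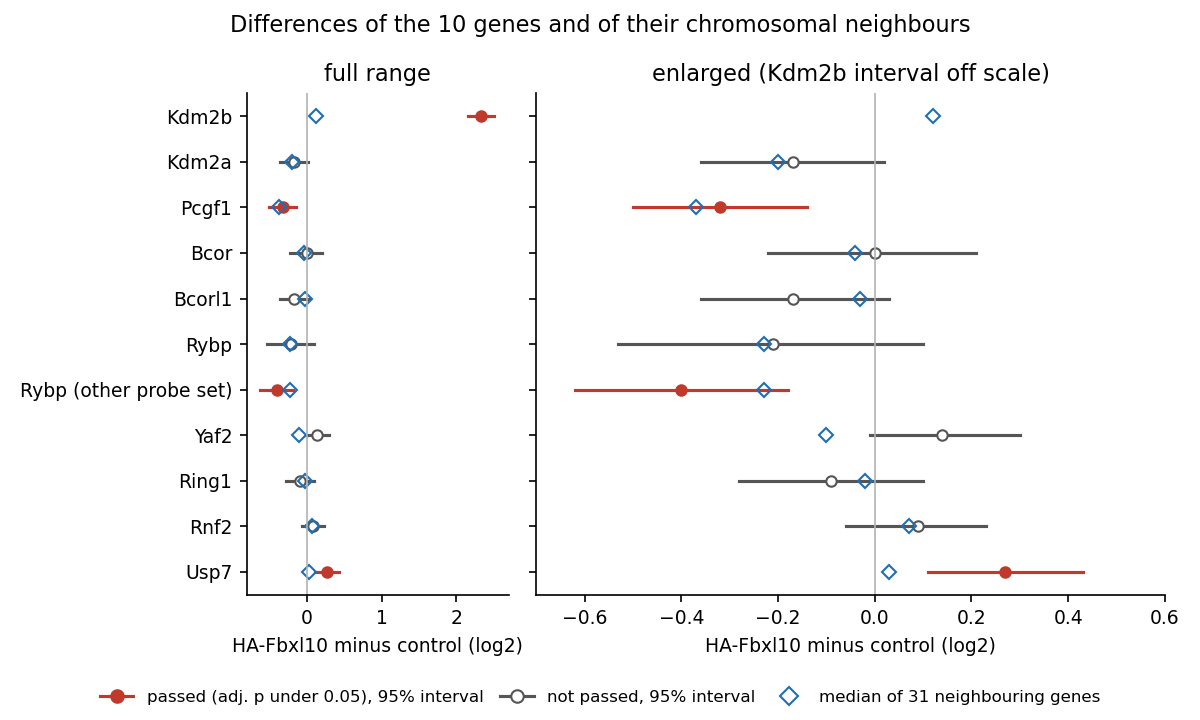
Difference between HA-Fbxl10 and control cells (log2) for the 10 genes and the second Rybp probe set, with 95% limma intervals from 3 arrays per group. Filled red points passed an adjusted p of 0.05, and blue diamonds give the median difference of the 31 nearest expressed genes on the same chromosome. The diamonds of Pcgf1 (-0.37) and Rybp (-0.23) lie among or near the genes' own values. Those of Kdm2b (0.12), Usp7 (0.03) and Yaf2 (-0.10), which did not pass, lie outside the intervals.

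**Figure D3:**
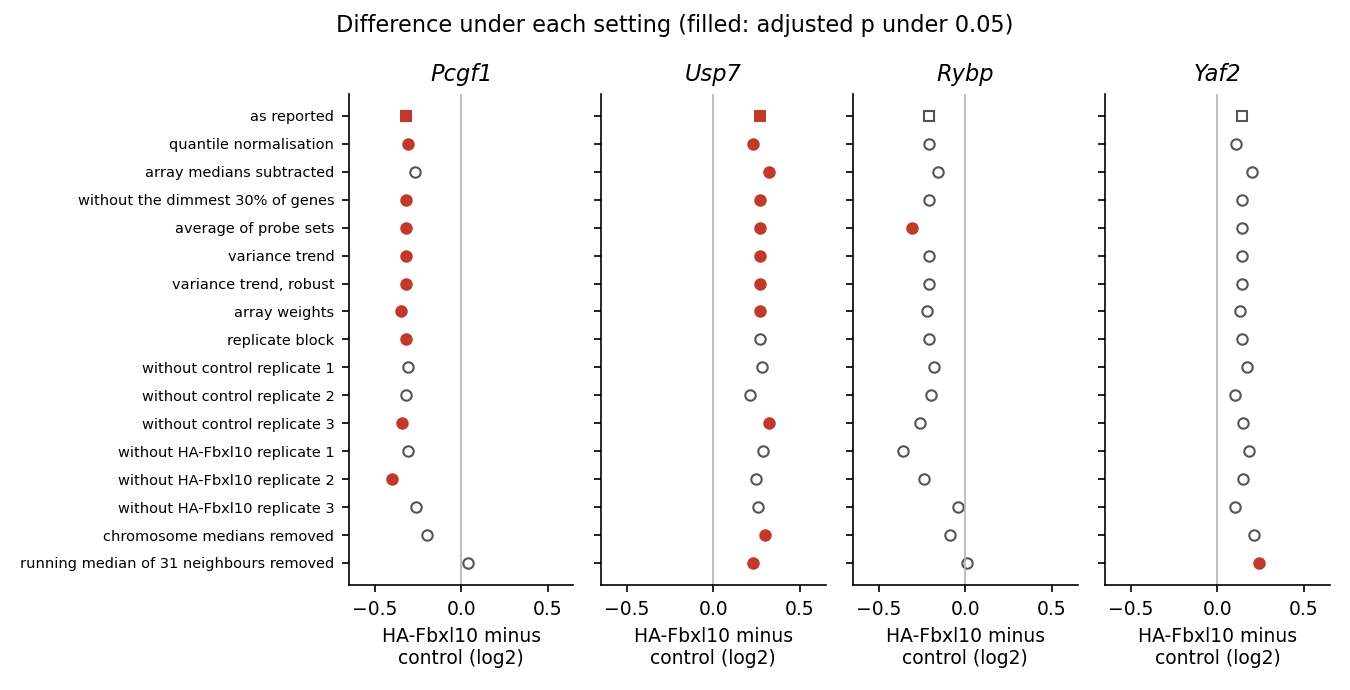
Difference between HA-Fbxl10 and control cells (log2) for Pcgf1, Usp7, Rybp (brighter probe set) and Yaf2 as reported (square) and under 16 alternative settings, filled where the adjusted p was under 0.05. Usp7 and Yaf2 stay above 0 throughout, while Pcgf1 and Rybp reach 0.04 and 0.01 once the neighbours' median is removed.

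Whether paralogs changed unequally was tested within arrays, by subtracting the log2 value of one from that of the other for 4 pairs. Only the change of this value between groups can be read, since the 2 probe sets need not hybridise alike. Kdm2b minus Kdm2a went from -0.92 ± 0.20 to 1.58 ± 0.18 (SD, n = 3 each), a change of 2.50 ± 0.16 (SE) with no overlap between the groups. Kdm2b was the transfected gene, so an unequal change of this pair was set by the design. Rybp minus Yaf2 went from -1.29 ± 0.10 to -1.65 ± 0.40, a change of -0.36 ± 0.24 on the brighter Rybp probe set and of -0.45 on the average of both. HA-Fbxl10 replicate 1 (-1.28) lay among the controls for this pair and replicate 3 (-2.08) far below them. The change was -0.54 without replicate 1 and -0.14 without replicate 3 of the HA-Fbxl10 group, so its size rests on these arrays. Ring1 minus Rnf2 changed by -0.17 ± 0.10 (SE) and Bcor minus Bcorl1 by 0.16 ± 0.12, with overlap in both. The latter change was 0.08 without control replicate 2 and 0.27 without control replicate 3. Exact two-sided permutation p-values were 0.10, 0.30, 0.20 and 0.40 in the order named, and 0.40 for each after adjustment over the 4 pairs. The design cannot go below 0.10 for a single pair.

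**Figure D4:**
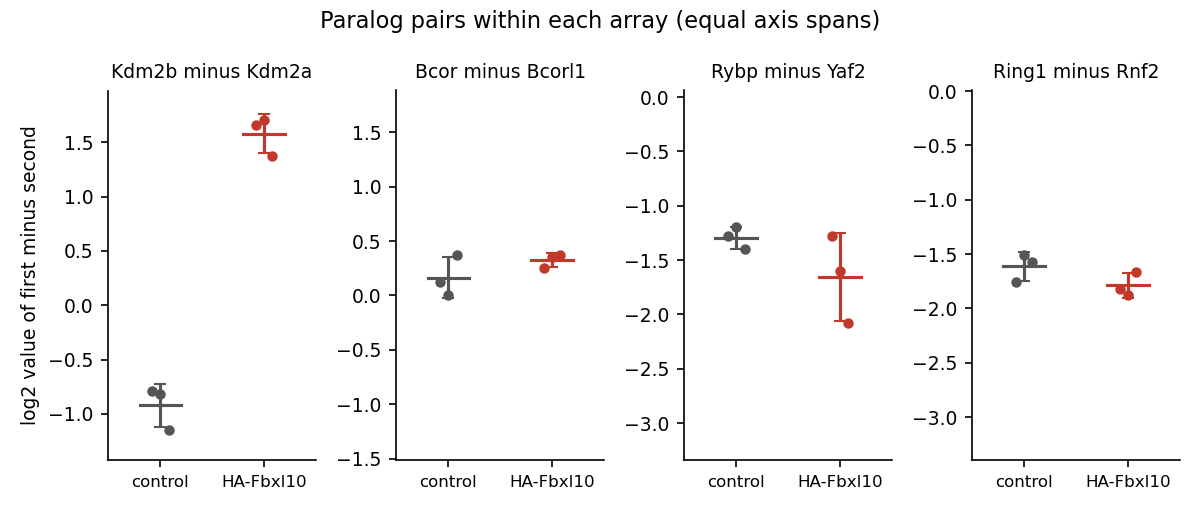
Log2 value of the first gene minus that of the second on each array, for 4 paralog pairs, with the mean and 1 SD of 3 arrays per group. All axes span the same range, and only the Kdm2b minus Kdm2a values of the 2 groups lie apart. Kdm2b is the transfected gene.

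Genes whose pattern over the 6 arrays was most like that of Kdm2b were sought among the 64 other genes above the median level that were at least 1 higher on the log2 scale. The 5 with the highest Pearson correlation with Kdm2b were Lama5, a laminin chain of basement membranes (r = 0.9987), the palmitoyltransferase gene Zdhhc2 (0.9983), Cdh2, which encodes N-cadherin (0.9969), the sulfotransferase gene Chst7 (0.9966) and the acyltransferase gene Mogat2 (0.9957). The 6 points form 2 groups of 3 arrays, so r mainly reflects the gap between groups. The candidates were picked for their rise, which set a high r in advance. Over the 64 the lowest r was 0.942 and the median 0.987. Mogat2 lay under the median level in control cells (5.06) and met the level filter through the HA-Fbxl10 arrays (6.85). The differences of the 5 genes were 1.69, 1.11, 1.40, 1.12 and 1.79 on the log2 scale, each smaller than that of Kdm2b.

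Other Polycomb and chromatin genes were followed as lists. Of 27 measured genes for other subunits of PRC1 complexes, 3 rose, 3 fell and 21 did not pass, with a median difference of -0.02. That is 22.2% of the list, close to the 21.1% of all genes and below the 37% of genes above the median level, where 25 of the 27 lay. Pcgf3, a PCGF subunit of another PRC1 form, rose by 0.55 ± 0.07 (SE) and Scmh1 by 0.45 ± 0.10, while the chromodomain gene Cbx8 fell by 0.42 ± 0.09 and Dcaf7 by 0.38 ± 0.06. The third fall was that of Skp1 (-0.20 ± 0.06, limma adjusted p = 0.0419), whose product joins the F-box of KDM2B and belongs to PRC1.1, named because of that role. Its call ended when array medians were subtracted, with the replicate block and with the chromosome's or the neighbours' median removed. It also ended without control replicate 1 or without any 1 of the HA-Fbxl10 arrays. Skp1, Cbx8 and Dcaf7 all lie on chromosome 11. Pcgf3 lies on chromosome 5 like Kdm2b, and with the neighbours' median removed it was 0.43 higher. Cbx8 did not pass with the neighbours' median removed (-0.23, adjusted p = 0.0916), a setting that left 1 gene of this list lower and 2 higher. Scmh1 lost its call without HA-Fbxl10 replicate 3 (adjusted p = 0.0523). Of 15 genes for PRC2 and for enzymes that remove ubiquitin from histone H2A, 3 rose and 3 fell (40.0% of the list, against 37% of genes above the median level, where all 15 lay), with a median of 0.02. Asxl2 (0.44 ± 0.08) and Eed (0.31 ± 0.07), a core PRC2 subunit, rose, and the methyltransferase gene Ezh1 (-0.53 ± 0.06) and Jarid2 (-0.37 ± 0.07) fell. The call of Eed ended when its probe sets were averaged.

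Genes that share a domain with Kdm2b changed in both directions. Of 21 genes for other JmjC proteins, 8 fell, 3 rose and 10 did not pass, and the list's median was -0.11. Passing genes made up 52.4% of the list, against 21.1% of all genes and 37% of those above the median level, where 16 lay. The falls are to be read against 10.6% of all genes and 17.8% of those above the median level. For the rises these shares were 10.5% and 19.2%. Kdm7a fell by 0.80 ± 0.07 (SE) and Kdm5a by 0.58 ± 0.11. The levels of Kdm7a were 5.18 in control and 4.38 in HA-Fbxl10 cells, both under the median level of all genes. Phf2 rose by 0.48 ± 0.06 and Phf8 by 0.45 ± 0.06. Of the 8 falling genes 3 lie on chromosome 6, and with the neighbours' median removed 9 fell and 4 rose. Without HA-Fbxl10 replicate 3, 5 fell and 2 rose. Of 10 genes for other CXXC finger proteins 20.0% passed, against 21.1% of all genes and 37% of those above the median level, where 8 lay. Of these genes 1 rose, Kmt2a (0.26 ± 0.08), and 1 fell, Tet3 (-0.37 ± 0.07). Neither passed once the neighbours' median was removed (0.08 and 0.00), and Kmt2a also lost its call without any 1 array other than control replicate 3 (adjusted p of 0.0737 to 0.138). Of 19 genes of the SCF ligase and other Fbxl proteins, Skp1 included, 1 rose and 4 fell, 26.3% of the list against 21.1% of all genes and 37% of those above the median level. Fbxl5 rose by 0.33 ± 0.06, Fbxl6 fell by 0.72 ± 0.08 and Fbxl20 fell by 0.42 ± 0.08. The falls numbered 2 without control replicate 1, control replicate 2, HA-Fbxl10 replicate 2 or HA-Fbxl10 replicate 3, and with the neighbours' median removed, where Fbxl5 did not pass (0.11). The last list held 7 measured SET-domain methyltransferase genes and was drawn up around Setd2 and the Nsd genes. The products of Setd2 and the Nsd genes methylate the histone H3 lysine at which KDM2 enzymes act, though not all to the state that KDM2 enzymes remove. Nsd2 (0.52 ± 0.08) and Setd2 (0.30 ± 0.08) rose and Setmar (-0.37 ± 0.09) fell. That is 42.9% of a short list, against 21.1% of all genes and 37% of those above the median level, where all 7 lay. Nsd2 lies on chromosome 5, as do Fbxl5 and Kdm2b, and with the neighbours' median removed Nsd2 was 0.36 higher. Setd2 and Setmar did not pass in that setting (0.04 and -0.12). Setd2 also lost its call without any 1 array other than control replicate 3 (adjusted p of 0.0593 to 0.10).

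**Figure D5:**
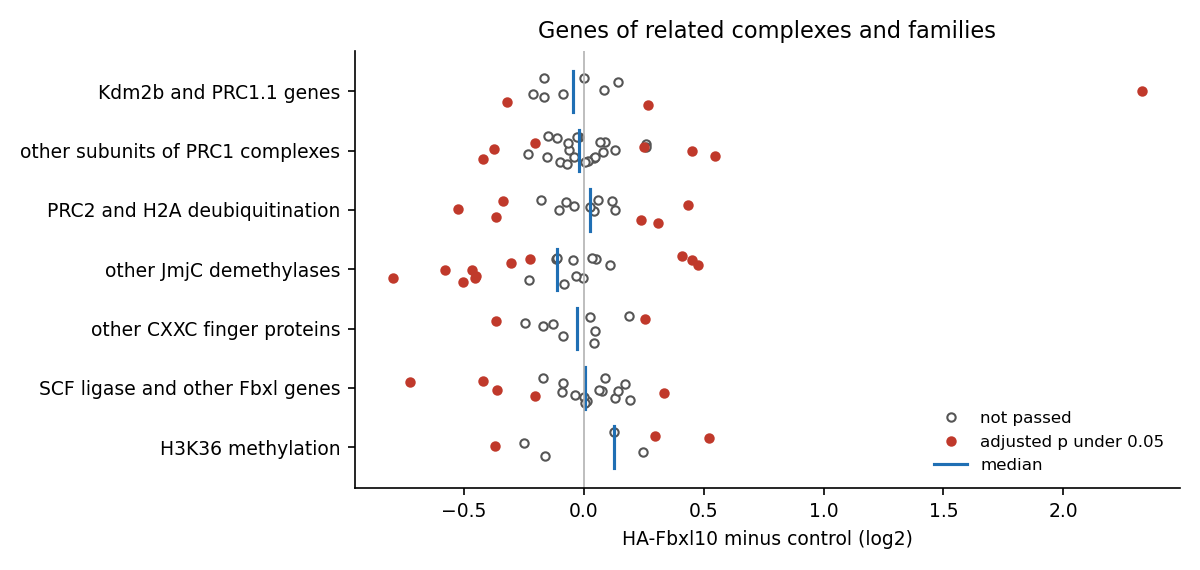
Difference between HA-Fbxl10 and control cells (log2) for each measured gene of 7 lists, filled red where the adjusted p was under 0.05, with the list median in blue and vertical scatter only for legibility. Kdm2b stands alone at 2.33, while every other gene shown lies between -0.80 and 0.55.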

How the data were processed

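RNA of 6 samples, 300 ng per array and labelled with biotin, was hybridised to Affymetrix arrays. The deposited log2 values, one per probe set (35556 in all), come from RMA according to the submitters' processing notes, with no version stated. RMA equalises array distributions and compresses low values, so folds may be understated. The platform annotation gives a single gene to 21789 probe sets. Symbols came through Entrez identifiers from the RefSeq table of GRCm38.p6, used otherwise only for chromosomes and gene order. Differences were tested in limma 3.58.1 (R 4.3.3) with empirical Bayes moderation, two-sided, and p-values were adjusted after Benjamini and Hochberg over 19936 genes at a threshold of 0.05. Expressed genes are those above the median level. Neighbours are the 31 nearest expressed genes on the chromosome, the gene itself left out. The members and lists were chosen with earlier results of these data known. Named genes were all members, up to 2 rises and 2 falls per list, the nearest expressed neighbours of members that passed and the 5 genes most like Kdm2b, with exceptions stated. Alternatives were quantile normalisation, subtraction of array medians, a filter on the dimmest 30% of genes, averaged probe sets, variance trends, array weights, a block for the replicate number, omission of single arrays, a threshold of 0.01 and removal of local or chromosomal medians. Fits over all probe sets were added after seeing the data. The number of arrays limits the precision. Figures were drawn with matplotlib 3.10.9.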

Additional observations from a re-analysis of the deposited data

How the results depend on the processing

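The Kdm2b difference passed in all 16 alternatives (2.16 to 2.39). Leaving out single arrays gave 1 to 3 passing genes among the 10, and 3208 to 3853 among all genes. At an adjusted p of 0.01, 2536 genes passed, and of the 10 genes 1 did. With the neighbours' median removed the Pcgf1 difference was 0.04, and those of Kdm2a, Bcor and Rybp, which had not passed, were 0.04, 0.04 and 0.01. Each was smaller than its SE and did not pass (limma adjusted p of 0.735 to 0.961). In that setting 3 of the 10 genes passed, of which 2 had passed before. Usp7 kept its direction in all 16 alternatives and passed in 10, and Pcgf1 passed in 9. Rybp passed with averaged probe sets and by its dimmer probe set, and Yaf2 with the neighbours' median removed. The causes were not tested. The 4 paralog changes moved by less than the larger of their 2 groups' SDs in all 32 alternatives, though those of Rybp minus Yaf2 and Bcor minus Bcorl1 ranged from -0.14 to -0.54 and from 0.08 to 0.27 without single arrays. Replicate numbers did not pair the samples, since the deviations of same-numbered arrays correlated at 0.09, -0.28 and -0.09. With the replicate block 3397 genes passed, and among the 10 genes 2 did. Signal over background was not given per probe set, and low RMA levels are compressed, which touches Bcor and Bcorl1 most among the 10 genes.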
